A study of Mus musculus with 24 samples.

Results

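The interleukin 12 family cytokine genes of the mouse are Il12a, Il12b, Il23a, Il27 and Ebi3. These 5 genes were taken by Ensembl identifier from the 55357 genes of a deposited count table and followed through bone marrow-derived macrophages stimulated with bacterial lipopolysaccharide (LPS), with and without a glucocorticoid. The cells came from wild-type C57BL/6J mice 8 to 12 weeks old. They were grown in medium with L929 cell supernatant, which supplies the macrophage growth factor M-CSF, so all 8 groups share that exposure. At 4 h and at 24 h there was an untreated group, a group given 100 nM dexamethasone, a synthetic glucocorticoid, a group given 100 ng LPS in a volume the labels do not state, and a group given both, each with 3 libraries. The question named for the series is how the anti-inflammatory action of glucocorticoids depends on time.

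The cytokines of this family are heterodimers, and a chain is often shared. IL-12 is Il12a with Il12b and drives T cells and natural killer cells to make interferon gamma. IL-23 is Il23a with the same Il12b chain and sustains T helper 17 cells. IL-27 is Il27 with Ebi3 and both stimulates and restrains T cells, and IL-35, described mostly in regulatory lymphocytes, is Il12a with Ebi3. Macrophages and dendritic cells switch the genes on after Toll-like receptor signals, through NF-kB, interferon regulatory factors and C/EBP proteins. Glucocorticoids act through a nuclear receptor that can repress such genes. A transcript level says nothing of how much of a dimer is assembled or secreted.

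The promoters of 3 of the 5 members, Il12a, Il12b and Ebi3, could be matched to RefSeq (build GRCm38.p6). They are shown because the 3 genes answered the same stimulus very differently, from near silence or from a standing level. Each line below holds the 250 bases before the transcription start, 5′ to 3′ on the gene's own strand, the plus strand for all 3. Capitals mark NF-kB-type motifs in all 3 and a C/EBP-type motif, nearer the start, in Il12b.
Il12a: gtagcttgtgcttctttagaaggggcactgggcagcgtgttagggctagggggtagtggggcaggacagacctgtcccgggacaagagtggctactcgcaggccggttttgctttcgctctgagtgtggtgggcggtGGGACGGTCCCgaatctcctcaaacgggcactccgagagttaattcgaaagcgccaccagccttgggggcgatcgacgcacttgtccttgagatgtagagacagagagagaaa
Il12b: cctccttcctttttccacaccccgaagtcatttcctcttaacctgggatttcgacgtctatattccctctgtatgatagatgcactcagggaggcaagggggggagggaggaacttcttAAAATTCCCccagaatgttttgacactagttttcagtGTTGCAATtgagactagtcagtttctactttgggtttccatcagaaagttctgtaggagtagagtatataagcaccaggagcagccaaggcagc
Ebi3: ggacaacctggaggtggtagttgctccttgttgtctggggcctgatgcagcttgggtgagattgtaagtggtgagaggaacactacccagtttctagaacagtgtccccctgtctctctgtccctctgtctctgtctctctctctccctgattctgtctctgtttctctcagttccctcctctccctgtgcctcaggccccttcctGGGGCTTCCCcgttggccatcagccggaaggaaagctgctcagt

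The Il12a window is chr3:68691174-68691423, that of Il12b is chr11:44399813-44400062 and that of Ebi3 is chr17:55952373-55952622. Windows of 300 bases, the 250 before the start and 50 after it, were searched on both strands for the NF-kB motif (GGGA and CC with any 4 bases between them), the interferon-stimulated response element, the palindromic glucocorticoid response element, an AP-1 motif (TGANTCA), a C/EBP motif and the TATA box (TATAAA). In Il12a the NF-kB letters matched on both strands in overlapping positions, -113 to -104 and -112 to -103. In Ebi3 they matched at -44 to -35 on the reverse strand. Both genes had a further match after the start. Of 32851 promoter windows of the same length 20.7% hold that NF-kB motif, 3.44% the interferon element, 7.81% the AP-1 motif, 10.8% the C/EBP motif and 13.6% the TATA box. The Il12b window held none of the 6 motifs. Its capitals mark GGGAATTTT, read on the reverse strand at -131 to -123 and found in 0.31% of windows, and GTTGCAAT at -94 to -87, found in 0.597%; both forms were added after the Il12b sequence had been read. The glucocorticoid element was found in 3 windows of all genes, 0.00913%, and in none of the members. A second RefSeq start of Il12a, with the window chr3:68690394-68690643, held no match.

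Of the table as a whole, library totals ran from 18326206 to 27908164 counts, and 14985 genes passed the low-count filter and were tested. Levels are in CPM, the usual count rate relative to the library total, here with TMM scaling, and errors on levels are standard deviations with n = 3 per group. Calls are adjusted p-values under 0.05 from edgeR's quasi-likelihood test over the 14985 genes. Nothing in the labels tells if replicate libraries stem from separate mice or cultures, so p-values measure only the spread between libraries, which may be technical. In bulk RNA, fewer cells of a type and less RNA per cell cannot be told apart. Macrophage markers summed to between 16302 and 51047 CPM with none of the 7 at 0 in any group. Lyz2 held most of that sum, with group means from 11108 to 39727 CPM. With dexamethasone added to LPS 3 of the 7 were called higher and 3 lower at 4 h, and 2 higher and 4 lower at 24 h. All 7 dendritic cell markers summed to 15.8 to 21.4 CPM in LPS libraries at 4 h, to 10.7 to 14.6 CPM with dexamethasone added, to 3.91 to 5.74 CPM in untreated libraries at 4 h, and to at most 2.14 CPM in the LPS groups at 24 h; with dexamethasone alone they summed to 10.7 to 17.1 CPM over both times. Within that list 4 genes were higher with LPS at 4 h, and with dexamethasone added 3 were lower and 1 higher. Xcr1, a marker of cross-presenting dendritic cells, moved with several members, at 0.133 CPM in untreated cells at 4 h, 9.87 CPM with LPS and 3.10 CPM with both. Flt3 moved otherwise, at 1.17 CPM untreated, 1.20 CPM with LPS and 5.82 CPM with both at 4 h. With dexamethasone alone Flt3 held most of the sum, at 15.1 CPM at 4 h and 9.07 CPM at 24 h. Against untreated cells 1 gene of the list was then called higher and 2 lower at each time. Cd209a was at 0 in both LPS groups at 24 h. Neutrophil markers summed to 117 to 160 CPM with LPS at 4 h, 80.3 to 123 CPM with both and 40.1 to 59.0 CPM untreated, with Ly6g at 3 counts or fewer in every group. Of the 6 stromal and endothelial markers, Pdgfrb held most of the sum, 40.9 CPM with LPS and 94.9 CPM with both at 4 h, with Col1a1 and Col1a2 at 2 counts or fewer in each of these groups. Pecam1 went the other way, at 4.61 CPM with LPS and 2.04 CPM with both, as did Cdh5, at 2.51 and 1.10 CPM. Between these groups 1 gene of the list was called higher with dexamethasone added and 2 lower. Lymphocyte markers summed to at most 2.69 CPM in any library. The part of other cells in the results below was not tested.

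The genes lie apart, on 5 chromosomes. In the positions of the table, whose annotation is GENCODE M29, Il12a is at chr3:68597977-68605880 on the plus strand, Il12b at chr11:44290890-44304860 (plus), Il23a at chr10:128132008-128134621 (minus), Il27 at chr7:126188182-126194113 (minus) and Ebi3 at chr17:56259640-56264022 (plus). Their exons sum to 1701, 1967, 2247, 1021 and 1154 bases. Il12a, Il12b, Il27 and Ebi3 passed the filter. Il23a, with 70 counts in all 24 libraries together, did not, and is described by its counts.

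**Figure D1:**
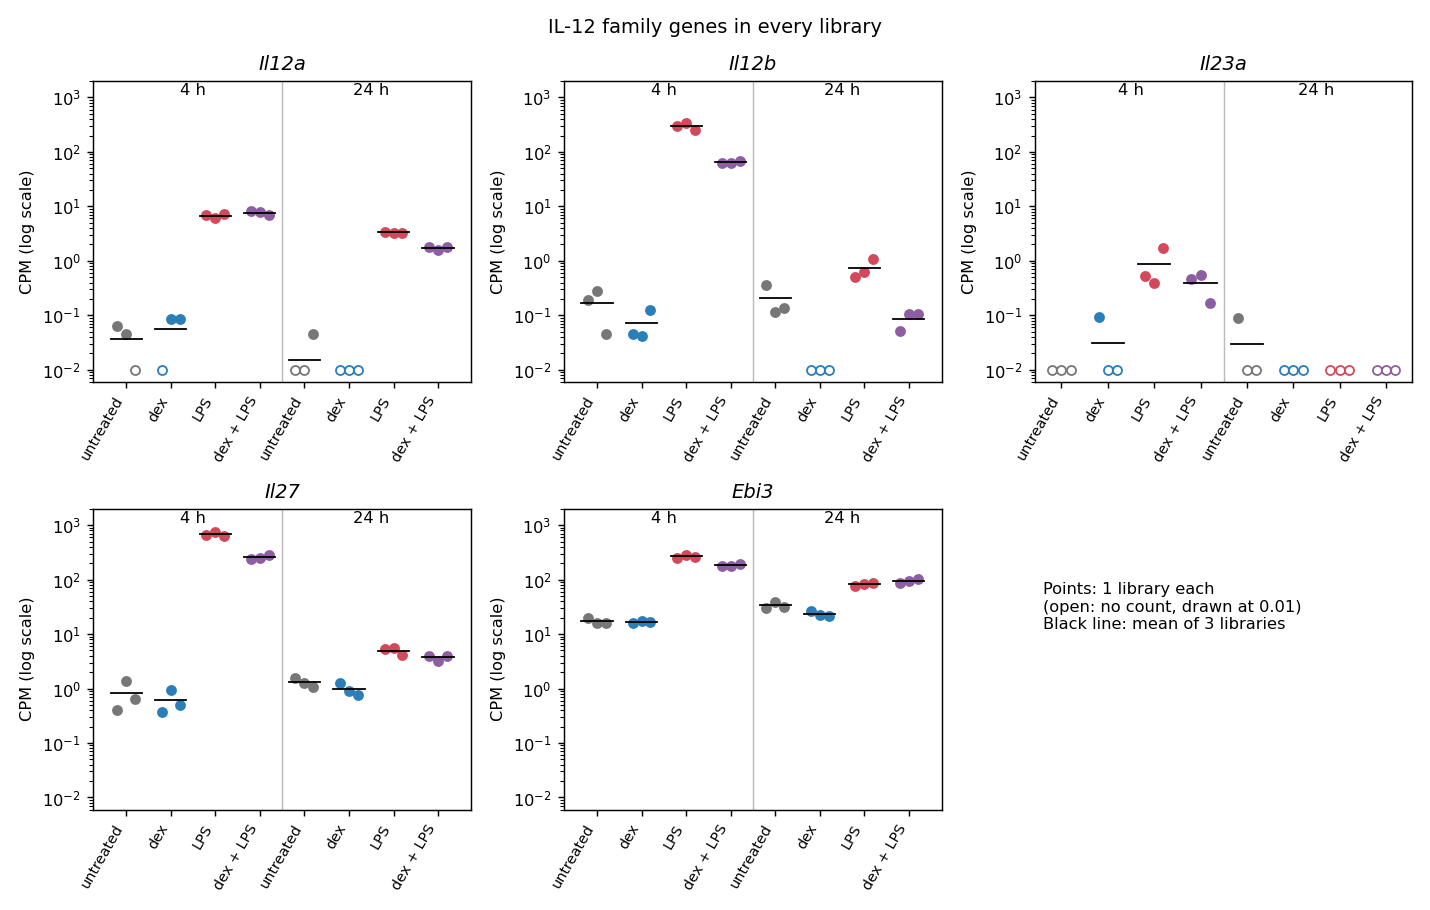
Levels of the 5 genes in every library, as CPM on a log scale, by treatment at 4 h and 24 h; each point is a library, open points have no count and are drawn at 0.01, and black lines are means of 3 libraries. Il12b and Il27 stand above 200 CPM in the libraries given LPS alone at 4 h and below 10 CPM in all libraries at 24 h, while Ebi3 stays between 15 and 300 CPM throughout.

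The first comparison asks what LPS did by 4 h. All 4 members tested rose, where 34.2% of all genes tested were called higher and 72.9% were called in either direction. Il12b and Il27 rose furthest from a measurable base, Il12a came from almost no counts to a modest level, and Ebi3, the member already present in resting cells, rose least.

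Il12b, the chain that IL-12 and IL-23 share, had 6, 6 and 1 counts in the untreated libraries at 4 h. With LPS it stood at 298, 345 and 257 CPM. The LPS libraries were all far above the untreated ones, a log2 fold change of 10.72 ± 0.18 (standard error, adjusted p = 3.6e-29). Il27, the chain that pairs with Ebi3 in IL-27, stood at 0.406, 1.38 and 0.644 CPM untreated and at 667, 741 and 624 CPM with LPS. The groups did not overlap, with a log2 fold change of 9.79 ± 0.17 (adjusted p = 4.3e-24), or 10.38 without untreated library 2 (adjusted p = 1.9e-29).

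Ebi3 was measured at 19.5, 15.999 and 16.2 CPM in untreated libraries at 4 h. With LPS it reached 252, 288 and 264 CPM, again without overlap (log2 fold change 3.95 ± 0.10, adjusted p = 2e-23). Il12a, the chain specific to IL-12 among the pairs with Il12b, had 3 counts over the untreated libraries and 356 over the LPS libraries. That is a ratio of 170 with a 95% counting interval of 57.7 to 829, and LPS levels were 7.06, 5.99 and 7.25 CPM (adjusted p = 1.2e-17). Il23a, the partner of Il12b in IL-23, had no count in untreated libraries and 10, 7 and 28 counts with LPS. Set against 3 counts over the group, it was at least 21.5-fold higher, but at least 11.7-fold without LPS library 3, which holds 28 of the 45 counts, and at least 12.4-fold without untreated library 1. In a fit without the low-count filter its adjusted p was 6.2e-07.

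Per length, the LPS libraries at 4 h had 663 ± 57.8 CPM per kb of Il27, 232 ± 16.1 of Ebi3, 152 ± 22.3 of Il12b, 3.98 ± 0.398 of Il12a and 0.396 ± 0.332 of Il23a. Il27, Ebi3 and Il12b were thus measured far above Il12a and Il23a. The counting touches Il27 and Ebi3, since reads were counted without strand and reads that overlap several genes were left out. Il27 overlaps Apobr, the apolipoprotein B receptor gene, on the opposite strand, which stood at 216 ± 12.0 CPM in untreated and 391 ± 21.2 CPM in LPS libraries at 4 h. Ebi3 overlaps the antisense gene Gm16712, at 1.29 ± 0.421 and 18.3 ± 2.69 CPM. How many reads each overlap moved was not tested.

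The next comparison is LPS against untreated cells at 24 h. All 4 members tested were still called higher, where 29.7% of all genes were called higher, 30.6% lower and 60.4% in either direction, but at levels far from those of 4 h. Il12b had 11, 12 and 22 counts with LPS, or 0.505, 0.625 and 1.09 CPM, against 8, 3 and 3 counts in untreated libraries. Its log2 fold change was 1.85 ± 0.49 (adjusted p = 0.0015), or 2.50 without untreated library 1 (adjusted p = 0.00048). Il27 stood at 5.23, 5.47 and 4.17 CPM against 1.58, 1.29 and 1.07 CPM (1.91 ± 0.25, adjusted p = 4e-07). In both genes the groups did not overlap.

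Ebi3 stood at 77.0, 83.4 and 85.2 CPM with LPS at 24 h and at 29.8, 39.2 and 31.9 CPM untreated, a log2 fold change of 1.28 ± 0.09 (adjusted p = 1.4e-12). Il12a had 203 counts over the LPS libraries and 1 over the untreated ones, a ratio of 232 with a counting interval of 41.2 to 9220 (adjusted p = 1e-14). Without untreated library 3, which holds that count, no untreated count is left. Its LPS levels were 3.44, 3.28 and 3.23 CPM. Il12a was thus the member whose LPS level lay nearest to that of 4 h. Il23a had no count in any LPS library at 24 h, where 3 counts would be 0.138 to 0.156 CPM, and 2 counts in the untreated group.

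LPS at 24 h was also set against LPS at 4 h directly. All 4 members tested were lower at 24 h, where 37.4% of genes were called lower and 77.4% in either direction. Il12b was at 0.247% of its 4 h level, a log2 fold change of -8.66 ± 0.15 (adjusted p = 2.8e-28). Il27 was at 0.733% (-7.09 ± 0.13, adjusted p = 5.1e-23), and the overlapping Apobr was at 90.4 ± 5.85 CPM against 391 ± 21.2 CPM. Ebi3 was at 30.5% (-1.71 ± 0.09, adjusted p = 3e-16) and Il12a at 49.1% (-1.03 ± 0.21, adjusted p = 6.1e-05). Il23a, with 45 counts at 4 h and none at 24 h, was at least 17.4-fold lower, or at least 9.45-fold without library 3 of 4 h and 11.2-fold without library 1 of 24 h. Scaling by library size only shifts the median of all genes by -0.769 for LPS at 4 h, by -0.2 for LPS at 24 h and by 0.515 for this comparison of times. It changes the share of calls that are higher from 46.8 to 19.9%, from 49.2 to 32.9% and from 51.7 to 71.2%. The 4 members kept their direction and their calls in all 3 comparisons under it.

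In cells given both agents the fall between the times had the same direction in all 4 members, where 37.2% of genes were called lower, 38.5% higher and 75.7% in either direction (50.9% of calls higher, or 65% by library size only, which shifts the median by 0.326). Il12b fell by 9.46 ± 0.23 on the log2 scale (adjusted p = 1.2e-24) and Il27 by 6.13 ± 0.14 (adjusted p = 2.3e-21). Il12a fell by 2.13 ± 0.23 (adjusted p = 3.8e-10) and Ebi3 by 0.97 ± 0.09 (adjusted p = 6.9e-11). Il23a went from 21 counts to none, at least 7.5-fold lower, or at least 4.99-fold without library 2 and 5-fold without library 3 of 24 h.

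Dexamethasone alone at 4 h called none of the 4 members, where 41.4% of all genes were called, and none of the 4 had an unadjusted p under 0.05 (the lowest was 0.16, for Il12b) nor a call from DESeq2. Ebi3 stood at 15.7, 17.5 and 16.3 CPM against 19.5, 15.999 and 16.2 CPM (log2 fold change -0.07, 95% interval -0.30 to 0.15, adjusted p = 0.65). Il27 stood at 0.370, 0.936 and 0.508 CPM, overlapping the untreated libraries (-0.31, interval -1.20 to 0.58, adjusted p = 0.61). Il12b had 1, 1 and 3 counts (adjusted p = 0.27), Il12a 4 in all and Il23a 2.

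At 24 h dexamethasone alone lowered 2 members, Ebi3 and Il12b, where 26.5% of genes were called lower and 48.4% in either direction. Ebi3 stood at 27.031, 22.7 and 21.6 CPM, all below the 29.8, 39.2 and 31.9 CPM of untreated cells, a log2 fold change of -0.50 ± 0.10 (adjusted p = 0.00012). Il12b had no count in the 3 dexamethasone libraries and 14 in the untreated ones. Set against 3 counts over the group it was at least 4.69-fold lower (adjusted p = 0.003). The bound is 2.94-fold without untreated library 1, which holds 8 of those counts (adjusted p = 0.021), and 3.08-fold or 3.1-fold without dexamethasone library 1 or 3. Il27 stood at 1.24, 0.892 and 0.756 CPM, overlapping the untreated range, and did not pass the test (-0.44, interval -1.16 to 0.27, adjusted p = 0.31). Il12a had 1 count in the untreated group and none with dexamethasone, too few to compare.

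The comparison at the centre of the design is LPS with dexamethasone against LPS alone. At 4 h Il12b, Il27 and Ebi3 were lower with dexamethasone, 3 of 4 members tested, where 25.4% of genes were called lower and 49.3% in either direction. Il12a, the partner of Il12b in IL-12, did not pass the test. By library size only the median of all genes moves by 0.222 and 71.6% of calls are higher rather than 48.5%, and the same 3 calls stand.

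Il12b stood at 62.4, 63.4 and 69.2 CPM with both agents at 4 h, against 298, 345 and 257 CPM with LPS alone. Every library with dexamethasone was below every library without it. The level was 21.7% of that with LPS alone, a log2 fold change of -2.21 ± 0.09 (adjusted p = 1.8e-18). Il27 stood at 244, 253 and 287 CPM against 667, 741 and 624 CPM, again without overlap. It was at 38.6% of the LPS level (-1.37 ± 0.09, adjusted p = 1.2e-11), with the overlapping Apobr at 353 ± 24.6 CPM against 391 ± 21.2 CPM.

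Ebi3 stood at 174, 178 and 197 CPM against 252, 288 and 264 CPM, at 68.3% of the LPS level (-0.55 ± 0.08, adjusted p = 2.9e-06). Il12a stood at 8.10, 7.75 and 6.81 CPM against 7.06, 5.99 and 7.25 CPM. These ranges overlap, and the log2 fold change of 0.16 had a 95% interval of -0.25 to 0.57 (adjusted p = 0.55), which leaves out a fall as large as that of Il12b, Il27 or Ebi3. Il23a had 9, 9 and 3 counts with both agents and 10, 7 and 28 with LPS alone. The ranges overlap, library 3 of the LPS group holds most of that group's counts, and the unfiltered fit gave a log2 fold change of -1.14 with an adjusted p of 0.39.

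**Figure D2:**
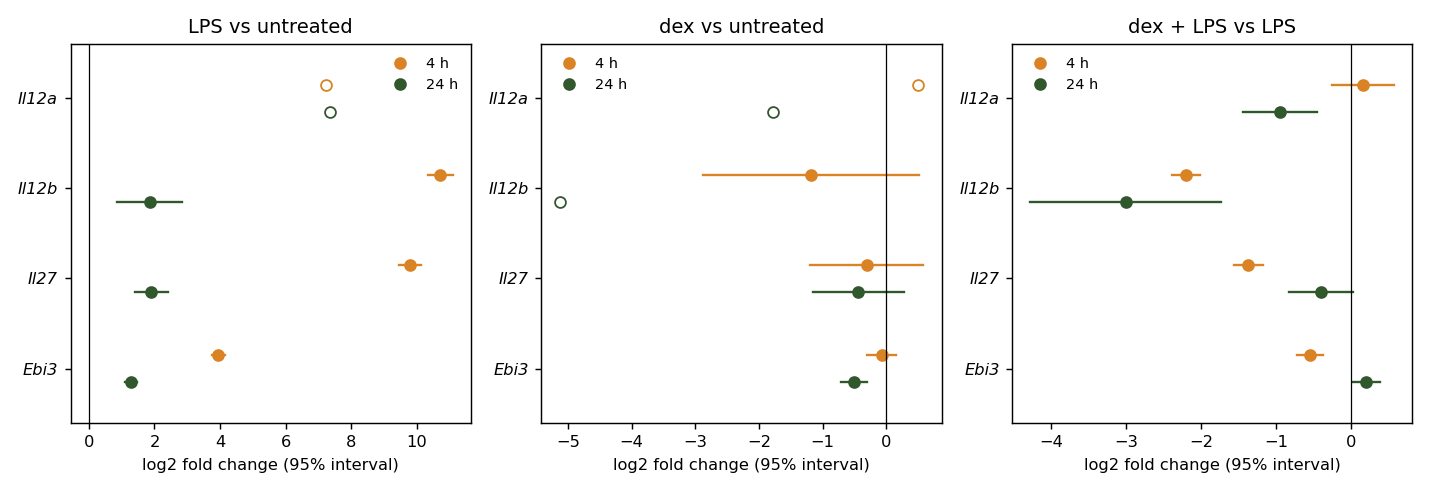
Log2 fold changes of the 4 tested genes with 95% intervals, at 4 h (orange) and 24 h (green), for LPS against untreated, dexamethasone (dex) against untreated, and both against LPS. Open points have 3 counts or fewer in a group and depend on the fit's prior count; in the right panel Il12b lies left of 0 at both times, and Il12a crosses 0 at 4 h only.

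At 24 h Il12b was again called lower, and Il12a was as well, 2 of 4 members, where 22.6% of genes were called lower and 43.7% in either direction. Il12b had 1, 2 and 2 counts with both agents and 11, 12 and 22 with LPS alone, a log2 fold change of -3.00 ± 0.62 (adjusted p = 0.00019). Every library was at or below 1.09 CPM. Il12a stood at 1.83, 1.55 and 1.77 CPM against 3.44, 3.28 and 3.23 CPM. Its libraries did not overlap, and it was at 51.8% of the LPS level (-0.95 ± 0.24, adjusted p = 0.0016).

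Il27 at 24 h stood at 3.98, 3.21 and 4.00 CPM with both agents, below the 5.23, 5.47 and 4.17 CPM of LPS alone in every library but short of the threshold (-0.41, interval -0.84 to 0.02, adjusted p = 0.12). Ebi3 stood at 86.9, 92.6 and 102 CPM, above the 77.0, 83.4 and 85.2 CPM of LPS alone in every library. That difference also missed the threshold (0.19, interval 0.02 to 0.37, adjusted p = 0.073). It was called under 5 of the alternative settings, for example by DESeq2 (0.22, adjusted p = 0.043), and without library 1 of both agents (0.25, adjusted p = 0.04). Il23a had no count in either group.

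Whether the dexamethasone effect under LPS differed between the times was tested as an interaction, in which 38.8% of all genes were called, 19% with a higher effect at 24 h and 19.8% with a lower one. Of the 4 members, 3 were called. Effects here are signed log2 changes, so a higher effect on a lowered gene is a smaller fall. The effect on Il12a was lower at 24 h than at 4 h by 1.11 ± 0.32 on the log2 scale (adjusted p = 0.0051), going from 0.16 to -0.95. The effects on Il27 and Ebi3 were higher at 24 h, by 0.96 ± 0.23 (adjusted p = 0.0016) and 0.75 ± 0.12 (adjusted p = 1.3e-05). They went from -1.37 to -0.41 and from -0.55 to 0.19, so neither gene fell as far at 24 h as at 4 h. For Il12b the difference of -0.80 had an interval of -2.21 to 0.62 (adjusted p = 0.4). By library size only the median of all genes moves by -0.189 here, 28.7% of calls are higher rather than 49%, and the 3 calls stand.

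A further interaction asked whether the dexamethasone effect differed with and without LPS. At 4 h 38.7% of all genes were called, 17.9% with a lower signed effect under LPS. Ebi3 was the 1 member of 4 among the latter (-0.48 ± 0.14, adjusted p = 0.0066), with effects of -0.55 with LPS and -0.07 without. That call is lost by library size only (-0.25, adjusted p = 0.11), which moves the median of all genes by 0.234 and the share of higher calls from 53.9 to 77.1%. Il27 had a difference of -1.06 ± 0.46 (adjusted p = 0.071). At 24 h 38.2% were called, 20.5% with a higher effect under LPS, and Ebi3 was again the 1 member called, now in the other direction (0.70 ± 0.13, adjusted p = 9.9e-05). Dexamethasone had lowered Ebi3 in otherwise untreated cells at 24 h, and its level under LPS was no lower with dexamethasone than without. Il12a and Il12b had too few counts without LPS for this question to be read from them.

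The balance of the chains was followed as ratios of counts per kb within each library, which need no scaling between libraries. For the IL-12 pair, Il12b over Il12a was 36.4, 49.5 and 30.5 with LPS at 4 h and 6.64, 7.06 and 8.75 with both agents. At 24 h it was 0.132, 0.170 and 0.297 with LPS and 0.0365, 0.0709 and 0.0627 with both. Il12b was thus in excess at 4 h and Il12a at 24 h, in all 6 libraries of each time. The geometric mean with LPS was 202-fold lower at 24 h than at 4 h, and with dexamethasone added it was 5.12-fold lower at 4 h and 3.45-fold lower at 24 h.

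For the IL-27 pair, Ebi3 over Il27 was 0.334, 0.344 and 0.375 with LPS at 4 h and 0.632, 0.622 and 0.608 with both. At 24 h it was 12.97, 13.4 and 17.983 with LPS and 19.2, 25.3 and 22.3 with both. Il27 was therefore the more abundant chain at 4 h and Ebi3 at 24 h, and libraries with dexamethasone had the higher ratio at both times. For the IL-35 pair, Ebi3 over Il12a had geometric means of 58.3 with LPS and 35.6 with both at 4 h, and of 36.1 and 79.3 at 24 h. Dexamethasone libraries lay below the LPS libraries at 4 h and above them at 24 h. Il12b over Il23a had geometric means of 455 with LPS and 195 with both at 4 h, with overlapping libraries and as few as 3 counts of Il23a in a library.

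Of 15 such comparisons of ratios 11 were tested by exact permutation, two-sided. All 9 without Il23a had groups that did not overlap and an exact permutation p = 0.1, the smallest that 3 libraries against 3 allow (0.12 adjusted over the 11), so none can pass 0.05. The 2 with Il23a at 4 h had p = 0.2 by the same exact permutation test. The other 4, which set Il23a at 24 h, had too few counts for a test.

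**Figure D3:**
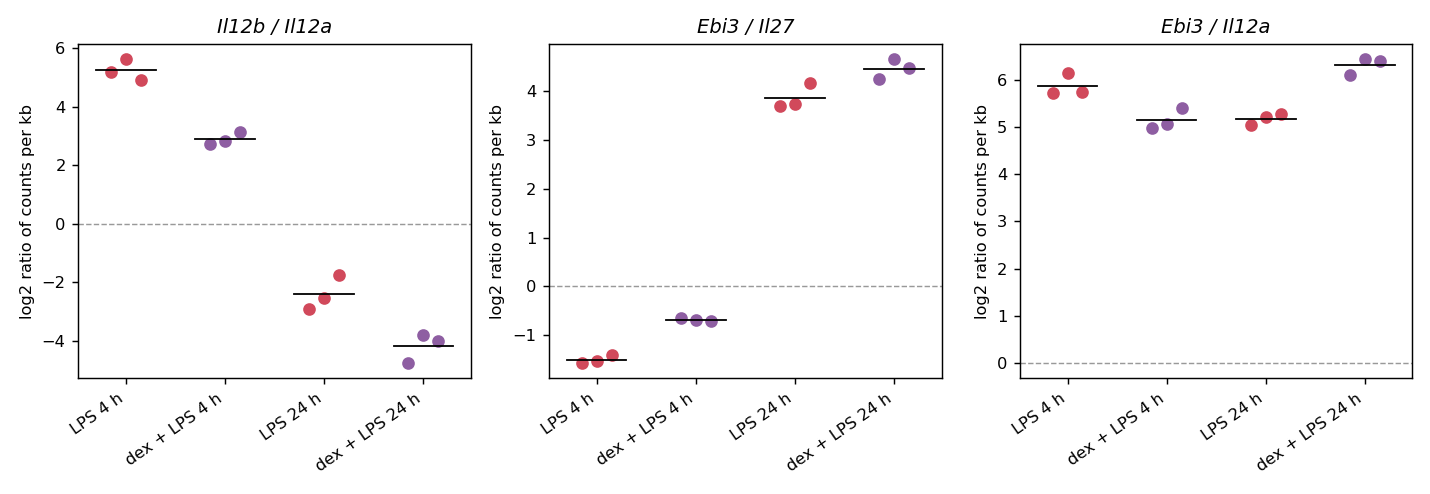
Log2 ratios of counts per kb of paired chains in each library of the LPS groups, with the mean of 3 libraries as a black line and equality as a dashed line. Il12b over Il12a falls below equality at 24 h, Ebi3 over Il27 rises above it, and Ebi3 over Il12a stays above it in all groups.

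The order of the groups differed between members. Il12b, Il27 and Ebi3 were highest with LPS at 4 h, followed by both agents at 4 h, with no overlap between these neighbours. Il12a was highest with both agents at 4 h, which overlapped LPS at 4 h, followed by LPS at 24 h and both at 24 h, each apart from the next. For Il27 the untreated and dexamethasone groups of both times, from 0.604 to 1.32 CPM in mean, overlapped their neighbours. For Ebi3 the untreated and dexamethasone groups overlapped at 4 h and not at 24 h. Over the 8 group means of log2(CPM + 0.5), Pearson's r was 0.983 for Il12b with Il27, 0.958 for Il12a with Ebi3 and 0.814 for Il12a with Il12b. These r values are descriptions, with no test, as the genes share libraries.

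By the same measure the tested genes most like Il12b, among named genes with a mean of at least 5 CPM, were Lipg (r = 0.9985), which codes for endothelial lipase, Tnfrsf9 (0.9982), the 4-1BB receptor of the tumour necrosis factor receptor family, and Tox4 (0.9979). Lipg was at 945 ± 68.1 CPM with LPS at 4 h, 223 ± 30.3 with both and 1.17 ± 0.431 with LPS at 24 h. Il27 was most like Wdr59 (0.995), Csf1 (0.9945), which codes for M-CSF, and Plek (0.9943). Ebi3 was most like Tnfsf15 (0.9944), a cytokine of the tumour necrosis factor family, Mapkapk2 (0.9898), a kinase downstream of p38, and Gca (0.988). Tnfsf15 was at 136 ± 8.55 CPM with LPS at 4 h, 121 ± 5.40 with both, 14.4 ± 1.73 with LPS at 24 h and 19.6 ± 2.51 with both. Il12a was most like Tank (0.9936), an adaptor in NF-kB and interferon signalling, H2-Q6 (0.9934), a non-classical MHC class I gene, and Klf7 (0.9929). Tank was at 278 ± 4.99 CPM with LPS at 4 h, 250 ± 17.7 with both, 176 ± 5.17 with LPS at 24 h and 109 ± 3.23 with both.

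The receptors of the family were measured in the same cells. Il12rb1 pairs with Il12rb2 for IL-12 and with Il23r for IL-23, and Il27ra pairs with Il6st for IL-27. Beside the counts of list genes below, the shares of all genes called higher and lower were 34.2 and 38.8% for LPS at 4 h, 29.7 and 30.6% for LPS at 24 h, 23.9 and 25.4% for both agents against LPS at 4 h, and 21 and 22.6% at 24 h. The chains and the other genes come from 7 lists with 36 genes besides the members; the median log2 fold change of all genes tested was -0.07 for LPS at 4 h and -0.02 for LPS at 24 h. With LPS 2 of the 5 chains were higher and 2 lower at 4 h, or 3 lower by library size only, where Il27ra joined, and 2 were higher and 3 lower at 24 h. Il23r had no count in untreated libraries and 52 with LPS, at least 24.8-fold higher (14.3-fold without untreated library 1), and at 24 h it had 679 counts against 1, a ratio of 777 with a counting interval of 139 to 30700. It was thus at 11.1 ± 0.703 CPM with LPS at 24 h, when Il23a had no count. Il12rb2 moved the other way at 24 h, from 7.50 ± 0.849 to 0.283 ± 0.203 CPM (-4.72 ± 0.28, adjusted p = 2.6e-17, or -5.41 without LPS library 3), and Il27ra fell from 7.49 ± 2.05 to 1.19 ± 0.0882 CPM (-2.64 ± 0.30, adjusted p = 1.4e-09). Il12rb2 was also called lower at 4 h (-0.46, adjusted p = 0.022), a call lost without untreated library 3 (adjusted p = 0.073), LPS library 2 (0.075) or LPS library 3 (0.059).

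Dexamethasone under LPS raised Il6st, the signalling chain gp130, at both times, from 50.4 ± 1.48 to 78.4 ± 5.93 CPM at 4 h (0.63 ± 0.06, adjusted p = 4.4e-12) and from 57.2 ± 3.05 to 103 ± 1.73 CPM at 24 h (0.85 ± 0.05, adjusted p = 6.8e-16). Il23r fell at 24 h from 11.1 ± 0.703 to 1.78 ± 0.415 CPM (-2.63 ± 0.27, adjusted p = 1.8e-09). In all, 1 receptor chain was higher and 1 lower at 4 h, the latter being Il12rb1, whose call is lost by library size only, and 2 were higher and 1 lower at 24 h. The medians were -0.34 and 0.76, beside -0.0044 and 0.0033 for all genes tested.

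The kinases, STATs and SOCS proteins relay and damp these receptors. With LPS at 4 h all 8 genes of that list were higher, beside 34.2% of all genes, and 7 were by library size only, where 1 was not called. At 24 h 6 were higher with LPS and none lower, but by library size only Tyk2 and Stat4 were called lower. Socs1, a feedback inhibitor of JAK kinases, went with LPS at 4 h from 1.43 ± 0.532 to 227 ± 24.7 CPM (7.28 ± 0.15, adjusted p = 1.8e-25). Socs3, which acts on gp130 receptors, went with LPS at 4 h from 2.66 ± 0.870 to 3286 ± 165 CPM (10.21 ± 0.15, adjusted p = 2.1e-25). With dexamethasone added 7 of 8 were lower at 4 h (median -0.89) and 5 of 8 at 24 h (median -0.40), beside 25.4 and 22.6% of all genes, with none higher; by library size only Tyk2 was called higher at 4 h. Stat4, the factor IL-12 signals through, fell at 4 h from 2.77 ± 0.482 to 0.403 ± 0.140 CPM (-2.75 ± 0.34, adjusted p = 1.6e-08). Socs1 was lower at both times, by 1.61 ± 0.10 and 2.60 ± 0.15 on the log2 scale (adjusted p = 1.1e-13 and 1.9e-14).

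The list of 12 factors known to activate these promoters had 9 genes higher and 3 lower with LPS at 4 h; by library size only it had 7 higher and 4 lower, with Irf8 turning lower. Nfkbiz, an NF-kB cofactor, went from 30.5 ± 0.801 to 1173 ± 37.0 CPM (5.27 ± 0.11, adjusted p = 1.3e-21), and Cebpb from 50.9 ± 2.49 to 863 ± 49.0 CPM (4.08 ± 0.09, adjusted p = 8e-26). The AP-1 genes Fos (-2.14 ± 0.11, adjusted p = 2.3e-14) and Jun (-0.66 ± 0.08, adjusted p = 4.2e-09) were lower. At 24 h 5 were higher and 6 lower with LPS, or 4 and 7 by library size only.

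With dexamethasone under LPS 9 of the 12 activators were lower and 2 higher at 4 h (median -0.35), beside 25.4 and 23.9% of all genes; by library size only 6 were lower, without Rela, Nfkb1 and Spi1. Irf8, an interferon regulatory factor of the myeloid lineage, was at 31.2 ± 3.46 against 262 ± 5.93 CPM (-3.07 ± 0.06, adjusted p = 3.3e-30) and Irf5 at 280 ± 17.6 against 541 ± 49.7 CPM (-0.95 ± 0.06, adjusted p = 5.1e-16). Jun (0.31 ± 0.08, adjusted p = 0.0014) and Irf3 (0.29 ± 0.06, adjusted p = 0.00028) were higher, Jun with overlapping libraries. At 24 h 5 were lower, or 4 without Nfkbiz by library size only or RLE factors, and 3 higher (median -0.05). Irf1 was at 54.2 ± 0.562 against 137 ± 18.1 CPM (-1.33 ± 0.07, adjusted p = 2.3e-18) and Rela at 80.2 ± 1.12 against 119 ± 1.78 CPM (-0.56 ± 0.05, adjusted p = 1.6e-11), while Fos was at 30.7 ± 2.71 against 15.2 ± 1.40 CPM (1.02 ± 0.13, adjusted p = 8.4e-07).

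**Figure D4:**
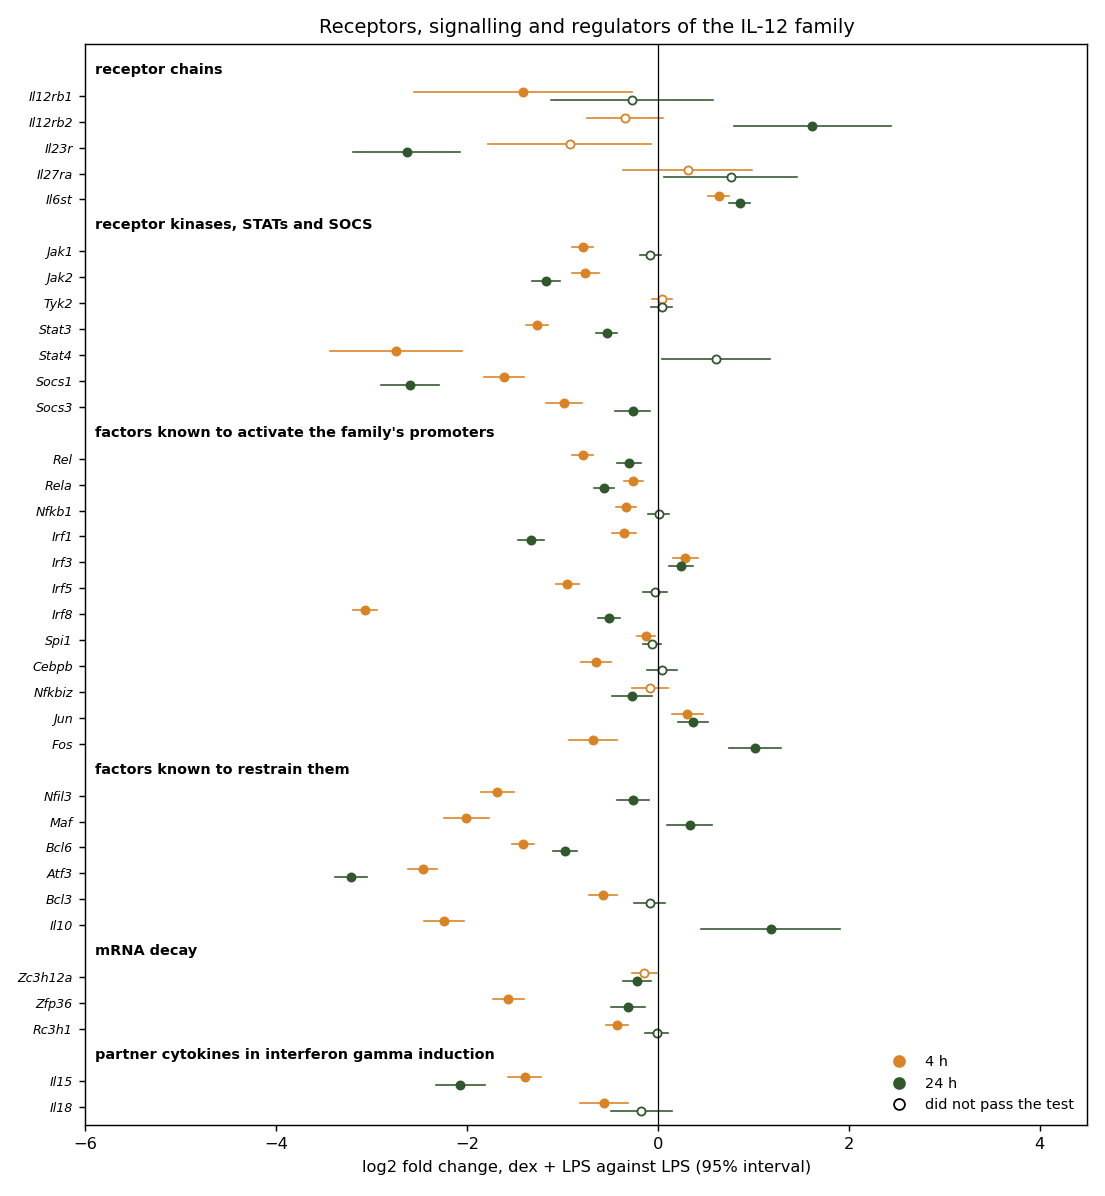
Log2 fold changes with 95% intervals of genes of the pathway lists besides the members, both agents against LPS alone, at 4 h (orange) and 24 h (green); open points did not pass the test. The 6 restrainers lie left of 0 at 4 h, and Atf3 lies left of -2 at both times.

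Of the genes known to restrain the family all 6 were higher with LPS at 4 h (median 2.89), beside 34.2% of all genes, and all 6 were lower when dexamethasone was added (median -1.85), beside 25.4%, also by library size only. With LPS at 24 h 3 were higher and 3 lower (median -0.55), or 2 higher and 3 lower by library size only. With both agents against LPS alone at 4 h, Atf3, a repressor of Toll-like receptor targets, was at 121 ± 6.01 against 671 ± 56.9 CPM (-2.47 ± 0.07, adjusted p = 2.1e-23). With both agents against LPS alone at 24 h, 3 of the list were lower and 2 higher (median -0.18). Atf3 was at 20.9 ± 2.20 against 195 ± 12.2 CPM (-3.22 ± 0.08, adjusted p = 4e-25) and Bcl6 at 47.1 ± 4.53 against 92.6 ± 1.40 CPM (-0.98 ± 0.06, adjusted p = 6.2e-16). The 2 called higher were Maf (0.33, adjusted p = 0.022), with overlapping libraries, and Il10 (1.18, adjusted p = 0.0082); Maf is lost without LPS library 1 or combined library 2 or 3 (adjusted p = 0.097 to 0.11), and Il10, at 1.78 ± 0.724 against 0.778 ± 0.308 CPM, without library 3 of either group (0.051 and 0.082).

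The 3 genes of mRNA decay were all higher with LPS at 4 h, or 2 of 3 by library size only. At 24 h 1 was higher and 1 lower, or 1 and 2 by library size only. Zfp36, which codes for tristetraprolin, was at 731 ± 72.7 against 2172 ± 153 CPM with dexamethasone under LPS at 4 h (-1.57 ± 0.08, adjusted p = 2.2e-15), and Rc3h1, the roquin gene, was lower as well (-0.43 ± 0.06, adjusted p = 8e-08); with RLE factors all 3 were lower. At 24 h Zfp36 (-0.31 ± 0.09, adjusted p = 0.0043) and Zc3h12a (-0.22 ± 0.07, adjusted p = 0.012), the regnase 1 gene, were lower. The Zc3h12a call is lost without library 2 of either group (adjusted p = 0.053 and 0.09). IL-15 and IL-18 join IL-12 in inducing interferon gamma. Both genes were higher with LPS at both times, Il15 at 528 ± 31.0 against 9.64 ± 0.296 CPM and Il18 at 71.1 ± 7.37 against 4.16 ± 1.08 CPM at 4 h; the Il15 call at 24 h (0.27, adjusted p = 0.023), with overlapping libraries, is lost by library size only (0.53) and without untreated library 1 (0.11) or 3 (0.082) or LPS library 2 (0.12) or 3 (0.067). With dexamethasone added Il15 was at 201 ± 19.1 against 528 ± 31.0 CPM at 4 h (-1.40 ± 0.08, adjusted p = 5.4e-14) and at 6.50 ± 1.04 against 27.4 ± 2.88 CPM at 24 h (-2.07 ± 0.13, adjusted p = 9.4e-14). Il18 was lower at 4 h, at 47.9 ± 7.17 against 71.1 ± 7.37 CPM (-0.57 ± 0.12, adjusted p = 0.00024).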

How the data were processed

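Total RNA of 24 macrophage libraries was sequenced, and 1 table of the whole series was used. Per the file headers, the authors counted read pairs with featureCounts 2.0.0, unstranded, over exons summed by gene of GENCODE M29, so the deposited values are whole-number counts without scaling, beside each gene's summed exon length. The submitters' processing notes name STAR and the builds GRCm38 and mm10, whereas GENCODE M29 annotates a later build, so positions of genes are given as in the table and promoter windows apart, in GRCm38.p6. Symbols were matched for 52081 of 55357 identifiers.

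All 24 libraries entered 1 fit in edgeR 4.0.16 (R 4.3.3) with a mean per group, TMM factors (0.679 to 1.184), the filterByExpr filter and robust quasi-likelihood dispersions (common biological coefficient of variation 6.29%). Each of 11 contrasts was tested two-sided, with Benjamini-Hochberg adjustment over 14985 genes. DESeq2 1.42.0 was an alternative, with other scalings, no filter, smaller fits, a replicate block and each library left out. Against an empty group, folds are bounds at 3 counts over the group. They take the counts of the other group as exact, so "at least" leaves out the counting error of that group. Intervals cover counting error only, and the bounds without single libraries were added after seeing the data. Ratios used counts + 0.5 per kb. Counts were simulated for LPS plus dexamethasone against LPS at 4 h, over 14985 genes. The test recovered 90% of 100 genes changed 2-fold and 76% of 100 changed 1.5-fold, with 4.05% of calls false. In the data 7388 genes were called in that comparison. The share of false calls with that many genes changed, or under another scaling, was not tested. Replicates differed by 3.21 to 8.94 chi-square units per gene, so none was a repeat deposit.

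The members and lists were chosen with earlier results of these data known. Named besides the members are, per list and main comparison, up to 2 genes that rose and 2 that fell furthest with at least 1 CPM in a group, and the 3 genes most like each member; the text and plots leave some out, and 1 gene of the signalling list is not reported here by name.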

Additional observations from a re-analysis of the deposited data

Results flagged for a closer look

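The dexamethasone effect under LPS differed between 24 h and 4 h in 3 members, by a test of the difference itself. On the log2 scale the difference, 24 h minus 4 h, was -1.11 for Il12a (adjusted p = 0.0051), whose effect was 0.16 at 4 h and -0.95 at 24 h. It was 0.96 for Il27 (adjusted p = 0.0016), from -1.37 to -0.41, and 0.75 for Ebi3 (adjusted p = 1.3e-05), from -0.55 to 0.19. The 3 genes carried these calls in all 18 alternatives run for each.

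For Ebi3 the dexamethasone effect also differed with and without LPS. At 4 h the effect with LPS minus that without was -0.48 (adjusted p = 0.0066), where 17.9% of genes were called lower; by library size only it was -0.25 and not called (adjusted p = 0.11). At 24 h it was 0.70 (adjusted p = 9.9e-05), where 20.5% were called higher, since dexamethasone lowered Ebi3 by itself (-0.50) and not under LPS (0.19).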

How the results depend on the processing

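No called value of a member reversed. Some values of members that were not called changed sign between settings. For dexamethasone alone at 4 h Il27 was at -0.31 in the main fit and reached 0.28 among the alternatives. For dexamethasone with LPS minus without LPS at 24 h Il12a was at 0.83 and reached -0.95. Among list genes 1 call reversed under another scaling, that of Irf8, from 0.60 with LPS at 4 h (adjusted p = 3.1e-12) to -0.17 by library size only (adjusted p = 0.004). Under the time and LPS contrasts the 4 tested members kept their calls in all alternatives. The number of members called for dexamethasone with LPS minus without LPS at 4 h was 1, but 0 by library size only (Ebi3 at -0.25, adjusted p = 0.11), 2 without the filter and 2 by DESeq2, where Il27 joined (-1.03, adjusted p = 0.0043; -1.08, adjusted p = 0.009); with single libraries left out it ran from 1 to 2, with Il27 called without untreated library 2 of 4 h (-1.65, adjusted p = 0.0024), dexamethasone library 1 of 4 h (-1.30, adjusted p = 0.039) or combined library 3 of 4 h (-1.14, adjusted p = 0.044). For both agents against LPS at 24 h the number was 2, also with the replicate block, but 4 without the filter, 3 with RLE factors, by library size only, in the fit of the groups compared and by DESeq2, where Ebi3 joined, and 2 to 3 with libraries left out. With the replicate number as a block, which does not pair the samples here (correlations of deviations -0.0577 to 0.0542), 7313 genes were called at 4 h and 6484 at 24 h for both agents against LPS, in place of 7388 and 6545, and no call of a member changed. Of the 61 values of list genes picked for naming, by the largest called changes, 5 lost their call in some alternative. That choice favours stable calls, and other list genes changed theirs by library size only. Irf5, Stat4 and Rc3h1 were then not called with LPS at 4 h, nor Nfkb1 and Bcl6 with LPS at 24 h. With dexamethasone under LPS at 4 h Rela, Nfkb1, Spi1 and Il12rb1 lost their calls, while Tyk2 was called higher. Il12a and Il12b outside LPS rest on few counts, where depth limits what can be seen.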
